A study of Mus musculus with 2 samples.

Results

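Iron and metal handling was examined through 8 genes of the 32285 in the count tables. They were taken by symbol and cover iron storage (Fth1 and Ftl1), iron export (Slc40a1), iron import (Tfrc, Slc11a1 and Slc11a2) and metal binding (Mt1 and Mt2). All 8 had UMIs in both libraries. The measurement was 3′ single-cell RNA-Seq of microglia from the lumbar spinal cord of male mice aged 8 to 10 weeks, sorted as CD45lo CD11b hi CX3CR1 hi after collagenase digestion. The control library came from Eif4ebp1 fl/fl mice and the 4E-BP1-cKO library from Eif4ebp1 fl/fl:TMEM119 CreERT2 mice, in which the Tmem119 promoter drives a Cre that 4-hydroxytamoxifen (4-OHT) switches on. Mice of the study received 4-OHT once a day from P4 to P9. Removing 4E-BP1, a repressor of cap-dependent translation, was the means of raising protein synthesis in these cells. There was 1 library per genotype, the number of mice behind each is not named, and no comparison below has a replicate or a p-value.

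Ferritin is a hollow shell of heavy (Fth1) and light (Ftl1) subunits in which iron is oxidized and stored. Slc40a1 encodes ferroportin, the iron exporter of the cell surface. Tfrc encodes the transferrin receptor, which brings transferrin-bound iron into endosomes, Slc11a2 encodes DMT1, which carries ferrous iron out of them, and Slc11a1 encodes NRAMP1, the related transporter of phagosomes. Mt1 and Mt2 encode metallothioneins, small cysteine-rich proteins that bind zinc and copper and are induced by metals, glucocorticoids and stress. Microglia take up iron from debris and are a known site of ferritin in the spinal cord and brain.

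Several of these transcripts carry an iron-responsive element (IRE), a hairpin bound by the iron regulatory proteins when iron is scarce. In a 5′UTR the bound hairpin blocks translation, and in a 3′UTR it protects the transcript from decay. The elements are shown as background on these transcripts. Iron, binding of the regulatory proteins and translation were not measured. They were searched for as an unpaired C, 5 paired bases, the loop CAGTGN with N not G, and the 5 pairing bases, on the sense strand of the GENCODE canonical transcripts of protein-coding genes. Fth1 (positions 88 to 114 of the transcript), Ftl1 (79 to 105) and Slc40a1 (167 to 193) had 1 element each, in the 5′UTR. Tfrc had 4 in its 3′UTR, starting at positions 3321, 3700, 3765 and 3812. The sequences follow 5′ to 3′ as 27 bases of DNA, with the loop of 6 bases in capitals.
Fth1, 5′UTR: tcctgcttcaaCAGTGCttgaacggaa
Ftl1, 5′UTR: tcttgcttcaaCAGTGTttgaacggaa
Slc40a1, 5′UTR: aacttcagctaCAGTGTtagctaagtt
Tfrc, 3′UTR, the first: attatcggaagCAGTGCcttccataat
Tfrc, 3′UTR, the second: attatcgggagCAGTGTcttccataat
Tfrc, 3′UTR, the third: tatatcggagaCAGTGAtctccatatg
Tfrc, 3′UTR, the fourth: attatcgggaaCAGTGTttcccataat

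The pattern occurred in 0.978% of 21770 canonical transcripts, and in the 5′UTR of 0.0919%. It was not found in the canonical transcripts of Slc11a1, Slc11a2, Mt1 or Mt2. Other transcripts of these genes were not searched, and a hairpin with a further bulge or mismatch would be missed. The search therefore cannot show that these genes lack an element, or that the list for Tfrc and the other members is complete. These are letters in a reference, and the counts below measure RNA, not its translation.

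Barcodes entered if they showed over 300 genes and if mitochondrial UMIs stayed under 5%, which gave 1147 control cells (4803562 UMIs, median 3053 per cell) and 445 4E-BP1-cKO cells (1734332 UMIs, median 2776). The libraries shared 0 cell barcodes. All 10 microglial markers were detected in both libraries, with a summed level of 12348 and 12291 CPM (UMIs scaled to a total of 1000000), and at least 3 of them were found in 1107 and 418 cells. The targeted gene, Eif4ebp1, had 95 UMIs (19.8 CPM) in the control and 51 UMIs (29.4 CPM) in the 4E-BP1-cKO library. The conditional allele concerns an exon before the last, whereas reads came from the 3′ end, so neither label is tested by that count. Tmem119, the gene whose promoter drives Cre, had 433 and 142 CPM. Intervals below are exact 95% intervals that cover counting error only.

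The storage genes and Mt1 were higher in the 4E-BP1-cKO library by less than 1.5-fold, Slc40a1 was lower by less than 1.5-fold, and the import genes differed by less than their counting error. Fth1 (ENSMUSG00000024661, chr19:9980600-9985111 of GRCm38, the mm10 build of the files) had 10066 UMIs in the control and 4415 in the 4E-BP1-cKO library, which is 2096 and 2546 CPM and a ratio of 1.21 (1.17 to 1.26). Ftl1 (ENSMUSG00000050708, chr7:45457944-45459886) had 8577 and 3678 UMIs, or 1786 and 2121 CPM, a ratio of 1.19 (1.14 to 1.23). Both subunits therefore differed in the same direction and by a like amount. A near-identical copy, Ftl1-ps1, held 35 and 11 UMIs of its own, and reads of such copies may be split, which leaves the Ftl1 count uncertain by an amount that was not measured. Mt1 (ENSMUSG00000031765, chr8:94178883-94180327) had 1401 and 659 UMIs, or 292 and 380 CPM, a ratio of 1.30 (1.19 to 1.43). Its neighbour Mt2 (ENSMUSG00000031762, chr8:94172618-94173567) was nearly silent, with 61 and 15 UMIs, or 12.7 and 8.65 CPM. The Mt2 ratio of 0.681 (0.359 to 1.21) had an interval that held 1.

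Slc40a1 (ENSMUSG00000025993, chr1:45908070-45926532) had 626 and 155 UMIs, or 130 and 89.4 CPM. Its ratio of 0.686 (0.571 to 0.819) was the one member ratio whose interval lay below 1. Tfrc (ENSMUSG00000022797, chr16:32608896-32632794) had 317 and 108 UMIs, or 66.0 and 62.3 CPM, a ratio of 0.944 (0.751 to 1.18). Of the divalent metal transporters, Slc11a1 (ENSMUSG00000026177, chr1:74375014-74386057) had 503 and 191 UMIs, or 105 and 110 CPM, a ratio of 1.05 (0.886 to 1.24). Slc11a2 (ENSMUSG00000023030, chr15:100387898-100424209) had 499 and 190 UMIs, or 104 and 110 CPM, also a ratio of 1.05 (0.888 to 1.25). No import gene thus stood apart between the libraries beyond counting error.

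With calls set at 1.5-fold on log2(CPM + 1), 0 of 8 members were called higher and 0 lower, where 4.32% of the 11784 genes with at least 20 UMIs were called higher and 11.3% lower. The members' median log2 ratio was 0.07, beside -0.05 for all genes tested. Without cells that carried at least 2 markers of another cell type, 2 members passed 1.5-fold, and with each cell thinned to 1000 UMIs, which gives every cell equal weight, 2 did. They were Mt1 (log2 ratios, 0.59 and 0.82) and Slc40a1 (-0.60 and -0.67) in both settings. Of all genes tested, 5.64% were called higher and 11.6% lower under the first of these settings and 10.4% and 14.6% under the second.

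**Figure D1:**
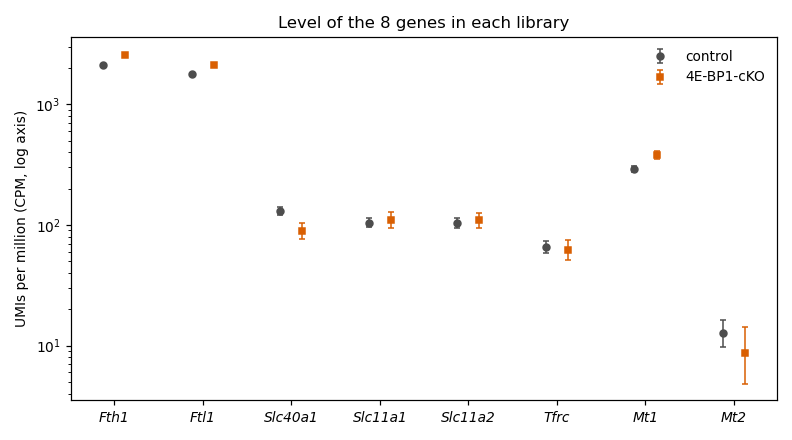
Level of each gene in CPM (log axis) in the control (circles) and 4E-BP1-cKO (squares) library, 1 library per genotype, with exact 95% Poisson intervals. Fth1, Ftl1 and Mt1 sit higher in the 4E-BP1-cKO library (2546, 2121 and 380 against 2096, 1786 and 292 CPM), Slc40a1 sits lower (89.4 against 130 CPM), and the intervals of the other 4 genes overlap.

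The libraries differed in the makeup of their cells, so the genes were next followed across 7 ranges of cells, called states here, set without any of the 8 genes. Ribosome-poor cells had under 3% of their UMIs in ribosomal protein genes and were split by whether a UMI of Gm35188 was present. Cells of usual share (3% to under 8%) were shallow below 1500 UMIs or deep, and the deep ones were split at 2.82% of UMIs in 20 early genes such as Fos and Jun, which dissociation can induce. High-share cells had 8% to under 14% and top-share cells 14% or more. These are ranges of measured shares and not cell types, and 85 control and 28 4E-BP1-cKO cells lay between 2.5% and 3.5%. Ribosome-poor cells made up 57.3% (54.4 to 60.2) of control and 47.4% (42.7 to 52.2) of 4E-BP1-cKO cells. Their median depth was 2354 and 1964 UMIs, against 6520 and 4683 in the cells of high and top share together.

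Storage RNA was lowest in ribosome-poor cells and several times higher in cells of high and top ribosomal share, and export RNA ran the other way. In the control library Fth1 stood at 831 CPM in ribosome-poor cells and 4004 CPM in cells of high and top share, a ratio of 4.82 (4.54 to 5.11). The 4E-BP1-cKO values were 838 and 4236 CPM, a ratio of 5.05 (4.57 to 5.60). Ftl1 stood at 779 and 2603 CPM in the control library, 3.34 times higher (3.13 to 3.56), and at 703 and 2901 CPM in the 4E-BP1-cKO library, 4.12 times higher (3.68 to 4.62). Slc40a1 was 163 CPM in ribosome-poor and 51.9 CPM in high- and top-share control cells, 3.14-fold lower in the latter (2.34 to 4.27). In the 4E-BP1-cKO library the values were 113 and 54.1 CPM, 2.09-fold lower (1.30 to 3.44). Each of these transcripts carries a 5′UTR element printed above, and the ferritin pair lay on one side of this contrast while Slc40a1 lay on the other. Whether the elements have a part in these RNA levels was not tested.

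Metallothionein RNA also tracked the ribosomal share. Mt1 was 102 CPM in ribosome-poor and 654 CPM in high- and top-share control cells, a ratio of 6.39 (5.43 to 7.54). The 4E-BP1-cKO values were 111 and 680 CPM, a ratio of 6.11 (4.65 to 8.15). Mt2 had 6 UMIs in ribosome-poor and 36 in high- and top-share control cells, a ratio of 10.8 (4.49 to 31.2). The 4E-BP1-cKO cells had 0 and 9 UMIs, which is at least 3.48-fold higher with the ribosome-poor cells set at a floor of 3 counts, while the exact interval of the ratio starts lower, at 2.29. The Mt2 values rest on few cells, since 10 cells held 59.0% of its control UMIs and 1 cell held 10 of 61.

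The import genes showed no shared direction here. Tfrc had ratios of 0.962 (0.689 to 1.33) in the control and 0.833 (0.465 to 1.47) in the 4E-BP1-cKO library. Slc11a2 was 115 and 113 CPM in ribosome-poor and high- and top-share control cells, a ratio of 0.984 (0.780 to 1.24). In the 4E-BP1-cKO library it was 169 and 89.4 CPM, a ratio of 0.530 (0.361 to 0.768). Slc11a1 had ratios of 1.14 (0.897 to 1.45) and 0.644 (0.426 to 0.960). Whether either transporter differed between the libraries in this respect was not tested.

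At a 2-fold limit in both libraries, 4 members were called higher (Fth1, Ftl1, Mt1 and Mt2) and 1 lower (Slc40a1) in cells of high and top share, beside 8.11% of all genes tested called higher and 10.8% lower. Slc40a1 lay just past the limit in the 4E-BP1-cKO library (log2 ratio, -1.05) and ranged there from -1.16 to -0.79 over 9 other settings, so its call rests on the setting. Ribosomal protein UMIs are part of the total to which each cell was scaled. With those and mitochondrial genes taken out of the total, the log2 ratios of Fth1 were 2.44 in the control and 2.52 in the 4E-BP1-cKO library, beside 2.27 and 2.34 with them. Median Malat1 share, a sign of nuclear RNA, was 5.09% and 5.59% in ribosome-poor cells and 2.09% and 3.05% in cells of high and top share. Microglial markers summed to 8048 and 8124 CPM in ribosome-poor and 14583 and 13499 CPM in high- and top-share cells. Oligodendrocyte markers, Trf included, went from 361 to 538 CPM in the control and from 294 to 553 CPM in the 4E-BP1-cKO library, and without Trf from 63.3 to 87.5 CPM and from 70.0 to 64.5 CPM. Border-associated macrophage markers went from 2.68 to 18.3 and from 7.18 to 16.6 CPM. Split by state, they summed to 22.6 CPM in high-share and 0 in top-share control cells, and to 0 and 63.4 CPM in 4E-BP1-cKO cells. T cell markers held 10 UMIs in the high- and top-share 4E-BP1-cKO cells, all in top-share cells, and 0 in the control ones. The part of nuclear RNA and of cell makeup in these differences was not tested.

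**Figure D2:**
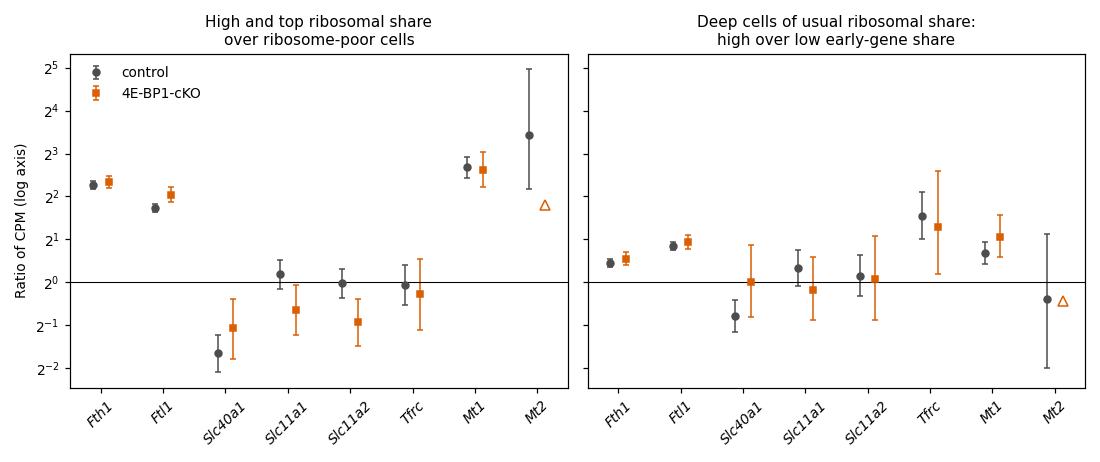
Ratio of CPM (log axis) between cell states within each library for the 8 genes, with exact 95% intervals. Left, cells of high and top ribosomal share over ribosome-poor cells, where Fth1, Ftl1 and Mt1 lie between 3.34 and 6.39 in both libraries and Slc40a1 lies at 0.319 and 0.478. Right, deep cells of usual share with a high over a low early-gene share, where Tfrc lies at 2.93 and 2.45. Open triangles mark Mt2 in the 4E-BP1-cKO library, computed against the floor of 3 counts because the lower group held 0 UMIs. They are floor values and not measured ratios. The right one lies at 0.743, from 5 UMIs against 0, and gives no direction.

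In CPM over the single states, heavy and light ferritin peaked in different cells, while at equal depth this held in the control library only. Fth1 was highest in top-share cells, at 6121 CPM (5781 to 6475) in the control and 6975 CPM (6522 to 7452) in the 4E-BP1-cKO library. In the control library it was followed by high-share cells (3505 CPM), deep cells with a high early-gene share (2683 CPM) and shallow cells (2320 CPM), and the intervals of the last pair overlapped. Ftl1 was highest in deep cells with a high early-gene share, at 3111 CPM (2992 to 3233) and 3237 CPM (3074 to 3406). In top-share cells it stood at 2494 CPM (2279 to 2723) in the control and 2901 CPM (2612 to 3214) in the 4E-BP1-cKO library. Its 4E-BP1-cKO intervals in deep cells with a high early-gene share and in top-share cells overlapped.

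The number of Fth1 UMIs per Ftl1 UMI, a measure added after the data were seen, puts both ferritin transcripts in 1 value per state. A UMI counts 1 captured 3′ end, and the capture of the 2 transcripts may differ, so the ratio is compared between states and not read as a ratio of subunits. It was 1.07 (0.992 to 1.15) in ribosome-poor control cells and 1.19 (1.04 to 1.37) in ribosome-poor 4E-BP1-cKO cells. In deep cells with a high early-gene share it was 0.862 (0.815 to 0.913) and 0.921 (0.855 to 0.992), below 1 in both libraries. With cells thinned to 1000 UMIs it was 0.981 and 0.901 there, so the control value then lay close to 1. In top-share cells it was 2.45 (2.21 to 2.73) and 2.40 (2.13 to 2.72).
Among single cells with at least 10 ferritin UMIs, Fth1 exceeded Ftl1 in 30 of 33 top-share control cells and in 18 of 21 4E-BP1-cKO cells. In deep cells with a high early-gene share this held for 57 of 116 and 25 of 64 cells, and in ribosome-poor cells for 20 of 43 and 11 of 16. The limit of 10 UMIs kept 33 of 34 and 21 of 22 top-share cells. It kept only 43 of 657 and 16 of 211 ribosome-poor cells, so those values cover a small part of that range. Ferritin took up 0.861% and 0.988% of all UMIs in top-share cells, against 0.161% and 0.154% in ribosome-poor cells.
A top-share 4E-BP1-cKO cell held 182 of the 880 Fth1 UMIs there, and without it the ratio was 2.05.

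**Figure D3:**
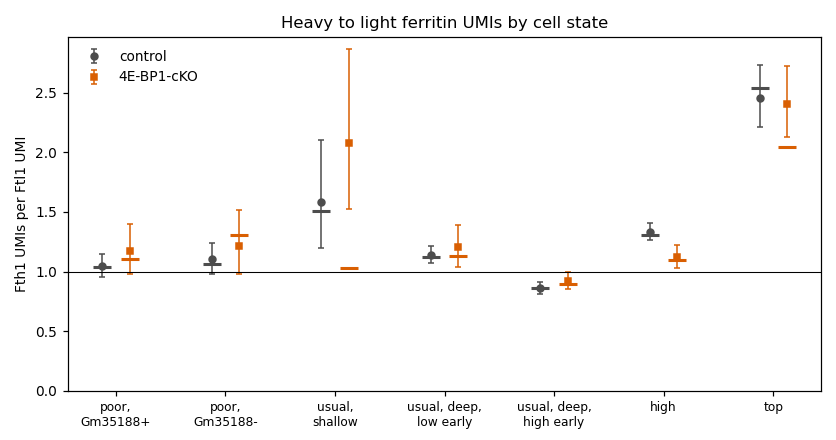
Fth1 UMIs per Ftl1 UMI in 7 cell states, ordered by ribosomal share, in the control (circles) and 4E-BP1-cKO (squares) library, with exact 95% intervals; short bars give the ratio without the cell that held the most Fth1 UMIs. Top-share cells reach 2.45 and 2.40, deep cells with a high early-gene share lie at 0.862 and 0.921, and the shallow 4E-BP1-cKO value drops from 2.08 to 1.03 without 1 cell.

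Mt1 was highest in high-share cells of the control library (677 CPM, 623 to 735) and in top-share cells of the 4E-BP1-cKO library (793 CPM, 645 to 964). The intervals of those 2 states overlapped in both libraries. It was lowest in ribosome-poor cells, at 81.8 CPM with Gm35188 in the control library and 85.9 CPM without Gm35188 in the 4E-BP1-cKO library. Slc40a1 was lowest in top-share cells of both libraries, at 30.2 CPM (11.1 to 65.8) and 39.6 CPM (12.9 to 92.5), from 6 and 5 UMIs. It was highest in deep control cells with a low early-gene share (177 CPM, 152 to 205) and in ribosome-poor 4E-BP1-cKO cells with Gm35188 (120 CPM, 85.5 to 164). No pair of states next to each other in the order of Slc40a1, Slc11a1, Slc11a2, Tfrc or Mt2 had separate intervals.

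**Figure D4:**
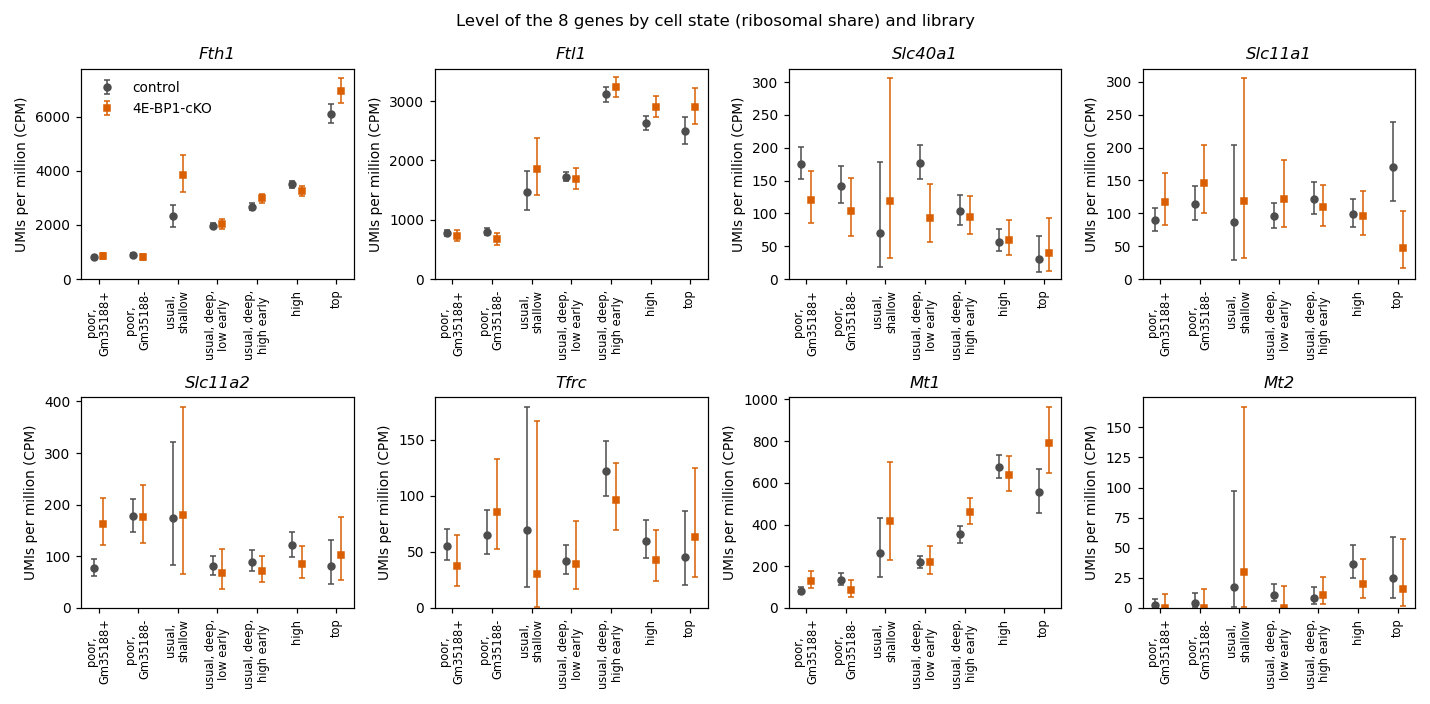
Level of each gene in CPM by cell state in the control (circles) and 4E-BP1-cKO (squares) library, with exact 95% Poisson intervals and a scale of its own per gene. Fth1 and Mt1 climb toward high and top share (Fth1 from 802 to 6121 CPM in the control library), Ftl1 and Tfrc are highest in deep cells with a high early-gene share, and Slc40a1 is lowest in top-share cells.

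Deep cells with a high early-gene share had more transferrin receptor and light ferritin RNA than deep cells with a low share. The Tfrc transcript carries the 3′UTR elements printed above, whose part here was not tested. Tfrc was 41.7 CPM in control cells of low and 122 CPM in those of high early-gene share, a ratio of 2.93 (2.03 to 4.30). In the 4E-BP1-cKO library it was 39.2 and 96.0 CPM, a ratio of 2.45 (1.14 to 6.03), from 8 and 44 UMIs. A single cell held 14 of the 102 Tfrc UMIs of these control cells, and another held 10 of the 44 of the 4E-BP1-cKO cells. Ftl1 had ratios of 1.80 (1.70 to 1.92) and 1.92 (1.70 to 2.16). Mt1 had ratios of 1.61 (1.34 to 1.92) and 2.09 (1.51 to 2.95), and Fth1 had lower ones of 1.36 (1.28 to 1.45) and 1.47 (1.31 to 1.64). Slc40a1 was 0.583 (0.445 to 0.758) times as high in control cells and 1.01 (0.575 to 1.83) times as high in 4E-BP1-cKO cells.

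At 1.5-fold in both libraries, 3 members were called higher with the early-gene share (Tfrc, Ftl1 and Mt1) and 0 lower, beside 5.98% and 8.13% of all genes tested. Without cells that carried at least 2 markers of another type, the control log2 ratios were 2.59 for Tfrc, 1.29 for Mt1 and -1.47 for Slc40a1, beside 1.53, 0.68 and -0.77 with them. That filter counted Trf and Mt3 as markers and left out 192 control cells over all states. Without the 2% of barcodes with the most UMIs, the 4E-BP1-cKO log2 ratios were 1.99 for Tfrc and 1.94 for Mt1, beside 1.27 and 1.06. When the early genes were induced was not tested. Proliferation markers summed to 115 CPM in control and 8.72 CPM in 4E-BP1-cKO deep cells with a high early-gene share, against 5.96 and 0 CPM in those with a low share. Endothelial markers summed to 224 CPM in control deep cells with a low early-gene share, where all 5 were detected, and to 4.89 CPM in the 4E-BP1-cKO ones, where 4 of 5 were at 0. Their part in the Tfrc values and in the Slc40a1 contrast was not tested.

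In ribosome-poor cells and in cells of high and top share, the ferritin ratios between the libraries were nearer 1 than over all cells. In ribosome-poor cells the 4E-BP1-cKO over control ratio was 1.01 (0.907 to 1.12) for Fth1 and 0.903 (0.805 to 1.01) for Ftl1, and in cells of high and top share it was 1.06 (1.003 to 1.12) and 1.11 (1.04 to 1.19). Shallow cells differed from this, with a Fth1 ratio of 1.66 (1.29 to 2.13) and a Ftl1 ratio of 1.26 (0.895 to 1.78). A single shallow 4E-BP1-cKO cell held 66 of the 129 Fth1 UMIs, and without the cell with the most Fth1 UMIs in each library the Fth1 ratio was 0.874 (0.636 to 1.19). With the 7 states weighted equally, the log2 ratio was 0.18 for Fth1 and 0.11 for Ftl1, beside 0.28 and 0.25 over all cells. Mt1 had a ratio of 1.09 (0.802 to 1.45) in ribosome-poor and 1.04 (0.909 to 1.19) in high- and top-share cells. The ribosome-poor value joins a ratio of 1.58 (1.07 to 2.30) in cells with Gm35188 and one of 0.630 (0.368 to 1.03) in cells without it. The Mt1 interval also lay above 1 in top-share cells, at 1.43 (1.08 to 1.89), and in deep cells with a high early-gene share, at 1.31 (1.09 to 1.56). Without the cell with the most Mt1 UMIs in each library, the ratios were 1.47 (0.968 to 2.20) in ribosome-poor cells with Gm35188, 1.43 (1.05 to 1.94) in top-share cells and 1.18 (0.971 to 1.43) in deep cells with a high early-gene share. Border-associated macrophage markers summed to 63.4 CPM and T cell markers to 79.3 CPM in top-share 4E-BP1-cKO cells and to 0 in control ones. Their part in the Mt1 value there was not tested.

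The lower Slc40a1 level of the 4E-BP1-cKO library was seen in ribosome-poor cells and in deep cells with a low early-gene share. In ribosome-poor cells the ratio was 0.694 (0.520 to 0.913). It was 0.684 (0.473 to 0.968) in those with Gm35188 and 0.726 (0.444 to 1.14) in those without, an interval that held 1. In deep cells with a low early-gene share it was 0.526 (0.309 to 0.846), from 178 and 19 UMIs. In the latter state border-associated macrophage markers summed to 55.6 CPM with 5 of 7 detected in the control library and to 0 in the 4E-BP1-cKO library, and endothelial markers to 224 and 4.89 CPM. Their part in the Slc40a1 value was not tested. In high-share cells it was 1.04 (0.590 to 1.77), and the intervals of the other states also held 1. With states weighted equally its log2 ratio was -0.26, beside -0.54 over all cells. Slc11a2 was the reverse in ribosome-poor cells with Gm35188, at 77.5 CPM in the control and 163 CPM in the 4E-BP1-cKO library, a ratio of 2.11 (1.47 to 2.99). 10 cells held 67.9% of those 53 4E-BP1-cKO UMIs, and the ratio was 2.10 without the cell with the most. Slc11a1 was lower in top-share 4E-BP1-cKO cells, at 47.6 CPM against 171 CPM, a ratio of 0.278 (0.0953 to 0.669) from 6 and 34 UMIs. The top-share cells differed in border-associated macrophage and T cell markers, as given above, and their part was not tested. Of the 56 ratios of a gene in a state, 9 had an interval above 1 and 4 below, and no test was made of any. The same count was not made over all genes, so whether it is unusual cannot be judged.

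Detection per cell was compared at equal depth. Without thinning, Ftl1 was detected in 78.8% of control and 78.4% of 4E-BP1-cKO cells. At 1000 UMIs per cell, which left out 108 and 87 shallower cells, the shares were 57.9% (54.9 to 61.0) and 67.0% (61.9 to 71.9). Mt1 was detected in 34.2% and 39.6% of cells before thinning and in 13.9% (11.8 to 16.1) and 21.2% (17.1 to 25.8) after it. The thinned intervals of these 2 members did not overlap between the libraries, and those of the other 6 did. The share of all genes with separate intervals was not computed, so this count has no background beside it. Thinning does not equalize the makeup of cells, and within states the direction varied. Ftl1 was found in 40.2% of control and 47.7% of 4E-BP1-cKO ribosome-poor cells with Gm35188, but in 87.4% and 81.5% of high-share cells. Mt1 was found in 20.6% and 54.5% of top-share cells, but in 13.5% and 11.0% of ribosome-poor cells without Gm35188. The part of cell makeup in the shares was not tested. Fth1 was detected in 65.3% (62.3 to 68.2) and 69.6% (64.5 to 74.3) of thinned cells and Slc40a1 in 11.9% (10.0 to 14.1) and 8.10% (5.49 to 11.4). Slc11a1 was detected in 9.62% (7.90 to 11.6) and 13.97% (10.5 to 18.0) and Slc11a2 in 8.85% (7.198 to 10.7) and 8.10% (5.49 to 11.4), although both had a level ratio of 1.05. At 2000 UMIs per cell the Ftl1 intervals overlapped, at 79.1% (76.1 to 81.9) and 84.0% (79.2 to 88.1), and those of Fth1, Slc40a1 and Mt1 did not. For Mt2 the thinned shares were 0.866% and 0.838%, beside 0.674% and 0.559% for Hba-a1 and 3.37% and 3.91% for Mbp, haemoglobin and myelin genes that microglia should lack. Over all cells the thinned Mt2 share is thus no higher than that of Mbp and cannot be told from background. Before thinning, Mt2 was found in 11.8% (7.03 to 18.2) of high- and top-share and 0.609% (0.166 to 1.55) of ribosome-poor control cells, which also differ in depth. No cell type lacking ferritin was sorted, so a background for the other members could not be set.

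Members met in the same cells to different degrees. The counts pool all states, which differ in detection. Thinned Fth1 shares, for example, were 47.2% in ribosome-poor control cells with Gm35188 and 100% in top-share control cells. Pairs within a state were not counted. In thinned control cells, Fth1 was found in 75.6% of cells with Ftl1 and 51.0% of cells without it, and in the 4E-BP1-cKO library in 77.1% and 54.2%. Mt1 was found in 16.8% of control cells with Fth1 and 8.31% of those without, and in 23.7% and 15.6% of 4E-BP1-cKO cells. Slc40a1 and Fth1 were found together in 77 control cells, where independence would give 80.9. In the 4E-BP1-cKO library they met in 23 cells, where it would give 20.2. Their opposite course over the cell states was thus not matched by fewer shared cells in the 4E-BP1-cKO library, and neither count was tested. Mt1 and Mt2 were found together in 1 control cell and 0 4E-BP1-cKO cells, where independence would give 1.25 and 0.637 cells. At 9 and 3 cells with Mt2, co-occurrence of the 2 metallothioneins was not detectable at this depth.

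Genes whose levels ran most like a member over the 7 states were ranked by the lower of the 2 libraries' Pearson correlations of log2(CPM + 1). The candidates were 1616 genes with at least 200 UMIs in each library. Ribosomal protein and mitochondrial genes were left out of them. The 7 points share libraries and depth, and the values are descriptions. Fth1 ran most like Gapdh (0.968), Serf2 (0.967), Eef1b2 (0.964), Selenok (0.962) and Tmsb10 (0.961). Ftl1 ran most like Eif1 (0.977), Ccl3 (0.970), 2410006H16Rik (0.965), Ubb (0.965) and Atp6v0c (0.960). Mt1 ran most like Npm1 (0.952), Uqcrh (0.948), Atp6v0c (0.944), Ccl4 (0.944) and Tpt1 (0.943). Fth1 and Mt1 correlated at 0.938 in the control and 0.957 in the 4E-BP1-cKO library, and Fth1 and Slc40a1 at -0.866 and -0.682.

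The wider list of iron and metal genes held 67 genes, 56 of them with at least 20 UMIs. Between the libraries 1 was called higher and 3 lower, beside 4.32% and 11.3% of all genes tested, with a median log2 ratio of 0.01. The higher one was Nfs1, the cysteine desulfurase of iron-sulfur cluster assembly, at 12.7 and 32.3 CPM and a ratio of 2.54 (1.74 to 3.72) from 61 and 56 UMIs. The lower ones were Cp (ceruloplasmin, the ferroxidase that works with ferroportin), Blvra and Urod, each with under 20 UMIs in the 4E-BP1-cKO library and named here after their values were seen. Cp had 68 and 10 UMIs, or 14.2 and 5.77 CPM, a ratio of 0.407 (0.187 to 0.796). Astrocyte markers, from cells that also make Cp, summed to 110 and 72.7 CPM with all 6 detected in both libraries. At least 2 of them were found in 16 control and 6 4E-BP1-cKO cells, and 3 in 0 cells of either library. The part of astrocyte RNA in the Cp values was not tested.

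Outside the 8 members, 48 list genes were tested. With the ribosomal share, 1 of them was called higher and 1 lower, beside 8.11% and 10.8% of all genes tested. Pcbp1, an iron chaperone that loads ferritin, was 57.9 CPM in ribosome-poor and 132 CPM in high- and top-share control cells, and 73.6 and 185 CPM in 4E-BP1-cKO cells. Fbxl5, which senses iron and marks an iron regulatory protein for degradation, was 52.0 and 23.1 CPM in control and 61.0 and 22.9 CPM in 4E-BP1-cKO cells. The list without the members had median log2 ratios of 0.18 in the control and -0.06 in the 4E-BP1-cKO library, beside -0.24 and -0.23 for all genes tested. With the early-gene share, 6 list genes were called higher, the members Tfrc, Ftl1 and Mt1 and the haem genes Hmox1, Alas1 and Urod, and 3 lower (Cp, Fbxl5 and Blvra), beside 5.98% and 8.13% of all genes tested. The Urod call set 2 UMIs against 0 in the 4E-BP1-cKO cells, and its control ratio of 2.17 (0.654 to 8.25) had an interval that held 1. The 4E-BP1-cKO intervals of Alas1 (0.914 to 5.63), Cp (0.00283 to 1.85), Fbxl5 (0.122 to 1.003) and Blvra (0.0597 to 3.33) also held 1. So did the control interval of Blvra (0.276 to 1.10). Hmox1, which frees iron from haem, was 237 and 378 CPM in control cells of low and high early-gene share and 250 and 438 CPM in 4E-BP1-cKO cells.

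Markers of other cell types were present at low levels. Trf, which encodes transferrin and stands in both the iron list and the oligodendrocyte list, had 348 and 351 CPM. Oligodendrocyte markers without Trf summed to 67.2 and 120 CPM, with Mog at 0 in the control library. Border-associated macrophage markers summed to 17.7 and 6.92 CPM, with Cd163 at 0 in both and Lyve1 also at 0 in the 4E-BP1-cKO library, and erythrocyte markers to 24.4 and 6.92 CPM. Endothelial markers summed to 77.0 CPM with 5 of 5 detected in the control and to 28.8 CPM with 2 of 5 in the 4E-BP1-cKO library. Markers of monocytes, neutrophils and T cells summed to between 0.577 and 6.34 CPM in both libraries, B cell markers to 6.87 and 10.96 CPM, and neuronal markers to 8.95 and 6.34 CPM. With the 57 control and 17 4E-BP1-cKO cells that carried at least 2 markers of another type (Trf and Mt3 not counted) left out, 0 members passed 1.5-fold between the libraries. Of all genes tested, 4.6% were then called higher and 11.2% lower.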

How the data were processed

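Sorted spinal microglia were profiled in 1 control and 1 4E-BP1-cKO library. The deposited files hold whole UMI counts for each barcode that Cell Ranger 8.0.1 called as a cell, with reads aligned by the authors to mm10. The sources used here name no annotation release. The deposited counts were not normalized, cleared of doublets or corrected for free RNA, and empty droplets were not analysed here.

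The members and lists were chosen with earlier results of these data known. Cells with over 300 genes and under 5% mitochondrial UMIs were kept. Doublets were not called, and an alternative left out the 2% of barcodes with the most UMIs. UMIs were summed per library and state and scaled to CPM, with a pseudocount of 1 CPM for log2 ratios. Ratios carry exact conditional Poisson intervals and shares exact Clopper-Pearson intervals at 95%. No test was made, because cells of 1 library are not replicates. Control depth (4803562 UMIs) exceeds 4E-BP1-cKO depth (1734332), which makes the latter's values less precise. Named genes were the 8 members and list genes with at least 20 UMIs in each library past 1.5-fold between libraries. The rule added the 3 list genes with the largest fold in the ribosomal contrast in one direction in both libraries. It also added the 5 genes most like each member with at least 200 UMIs per library, ribosomal protein and mitochondrial genes left out. One gene that this rule names is not reported here. Hmox1 and Trf were named in addition, after their values were seen. Gene positions came from RefSeq on GRCm38.p6, and transcripts for the hairpin search from GENCODE on GRCm39. Python 3.11.15, numpy 2.4.6, scipy 1.17.1, pandas 2.3.3 and edgeR 4.0.16 (for TMM factors) were used, and the interval and thinning steps were tested on simulated data. Alternatives changed the total, pseudocount, filters, state limits, weighting of states and depth per cell.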

Additional observations from a re-analysis of the deposited data

Results flagged for a closer look

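In summed UMIs, Fth1 differed between the libraries in opposite directions in different cell states, with counting intervals clear of 1 on both sides. The 4E-BP1-cKO over control ratio was 0.931 (0.869 to 0.997) in high-share cells, and it was 1.11 (1.04 to 1.19) in deep cells with a high early-gene share, 1.14 (1.04 to 1.24) in top-share cells and 1.66 (1.29 to 2.13) in shallow cells. The difference between states was not tested. At 1000 UMIs per cell, mean Fth1 UMIs were 3.65 in control and 3.77 in 4E-BP1-cKO high-share cells. They were 3.08 and 3.07 in deep cells with a high early-gene share and 6.79 and 7.82 in top-share cells. The lower high-share value was thus not seen at equal depth per cell. In shallow cells, oligodendrocyte markers without Trf summed to 227 CPM in the control and 2868 CPM in the 4E-BP1-cKO library, where all 6 markers of the list were detected, and their part in the Fth1 value was not tested. In control and 4E-BP1-cKO cells, border-associated macrophage markers summed to 22.6 and 0 CPM in high-share and to 0 and 63.4 CPM in top-share cells. T cell markers summed to 79.3 CPM in top-share 4E-BP1-cKO cells. The part of both in the Fth1 values was not tested. Leaving out the cell with the most Fth1 UMIs in each library and state, an alternative chosen after seeing the data, gave 0.927 (0.863 to 0.994) in high-share cells and 1.09 (1.02 to 1.17) in deep cells with a high early-gene share. The same step gave 1.03 (0.930 to 1.13) in top-share cells and 0.874 (0.636 to 1.19) in shallow cells, so both of those intervals then held 1.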

How the results depend on the processing

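No paired analysis was possible because there was 1 library per genotype, and for the same reason no library could be left out. Between the libraries the count of members past 1.5-fold was 0 as reported. It was 2 without cells carrying at least 2 markers of another type, Trf and Mt3 counted (Slc40a1 and Mt1). It was also 2 with cells thinned to 1000 UMIs (Slc40a1 and Mt1), and it was 0 under the other 10 alternatives. In the ribosomal contrast the count was 5 as reported and 4 or 5 under its 9 alternatives. In the early-gene contrast it was 3 as reported and 3 or 4 under its 9 alternatives. For these 2 contrasts the share of all genes called was not computed under the alternatives. With shares of cells, 2 members had separate intervals at 1000 UMIs per cell (Ftl1 and Mt1) and 3 at 2000 (Fth1, Slc40a1 and Mt1). These counts were not made over all genes. Of all genes tested, the share called higher between libraries ranged from 0.713% (pseudocount of 10 CPM) to 10.4% (thinned), and the share called lower from 2.15% (the same pseudocount) to 16.4% (no minimum of UMIs), beside 4.32% and 11.3%. Over single members, 10 of 96 log2 ratios between libraries left the main counting interval. In the ribosomal and early-gene contrasts 17 and 18 of 144 values each did. In these 2 contrasts 0 called log2 ratios changed sign, and only ratios past the fold as reported could count. Between libraries 0 members were called, so none of those 96 values could count as such a change. Some log2 ratios that were not called did change sign. For example, Tfrc between libraries ranged from -0.37 (thinned) to 0.03 (without cells with markers of another type). Mt2 ranged there from -0.52 to 0.03 (without the 2% of barcodes with the most UMIs). In the early-gene contrast Slc40a1 ranged from -0.45 to 0.68 in the 4E-BP1-cKO library and Mt2 from -0.48 to 1.59 in the control. The pseudocount moved Mt2 most in the ribosomal contrast, from a log2 ratio of 3.08 to 1.76 in the control and from 4.30 to 1.52 in the 4E-BP1-cKO library. Fth1 UMIs per Ftl1 UMI were recomputed for top-share cells and for deep cells with a high early-gene share. Of these 24 alternative values, 2 left the main counting interval. They were 0.981 in deep control cells with a high early-gene share (thinned) and 2.78 in top-share 4E-BP1-cKO cells (without cells with markers of another type). Depth limited Mt2, with 15 UMIs in the 4E-BP1-cKO library, and all members in top-share cells, of which there were 34 and 22.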
